A study of Mus musculus with 6 samples.

Results

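The endoplasmic reticulum (ER) stress genes described here are 34 named mouse genes that encode the chaperones, disulfide enzymes, degradation factors, stress sensors and stress transcription factors of the ER. They were found by matching the Ensembl identifiers of the deposited count table to gene symbols in the GENCODE M21 annotation of GRCm38, and all 34 were among the 54532 genes listed. The symbol Ddit3 belonged to 2 identifiers, and the shorter record, with 105 exon bases, held 0 counts in all 6 libraries, so the other was used.

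The study asked whether cells resembling cancer-associated adipocytes are found in the fat of obese mice. Epididymal fat, the large visceral depot beside the epididymis, was taken from male C57BL/6J mice that had received either a normal diet (ND, 4.5% fat) or a high-fat diet (HFD, D12492, 60% fat) for 16 weeks from 4 weeks of age, so that the HFD-fed mice were 20 weeks old. The labels mark both groups as receiving no compound, and no genetic change is named. Each group had 3 RNA-seq libraries of whole tissue (ND1 to ND3 and HFD1 to HFD3), with 16996896 to 18859320 counts assigned to genes per library.

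Proteins that enter the secretory pathway are folded in the ER lumen by chaperones, glycosylated, and joined by disulfide bonds, and those that fail to fold are exported to the cytosol for degradation. When unfolded protein builds up, the sensors Ern1 (IRE1), Eif2ak3 (PERK) and Atf6 start the unfolded protein response: Ern1 splices the Xbp1 mRNA into the form that encodes an active transcription factor, Eif2ak3 phosphorylates the translation factor eIF2 and thereby favors translation of Atf4, and Atf6 is cut into a transcription factor. Other kinases that phosphorylate eIF2 feed into the same Atf4 arm, which is therefore called the integrated stress response. In adipose tissue the pathway has been studied as part of the response to obesity.

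The promoter elements by which these factors are known to act were looked for in RefSeq promoters (GRCm38.p6, 250 bases before to 50 bases after the start site, 32851 promoters), which matched 30 of the 34 genes; Hyou1, Manf, Derl1 and Atf6 were not matched. The ER stress response element, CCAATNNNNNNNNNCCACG on either strand, was present in 10 of the 30 (Hspa5, Hsp90b1, Dnajc3, Creld2, Calr, Canx, Pdia6, Ero1lb, Syvn1 and Derl3), or 33.3%, and in 0.119% of all promoters. The shorter ER stress response element II, ATTGGNCCACG, was present in Dnajb11 and Herpud1, or 6.67%, and in 0.0365% of all promoters. The unfolded protein response element core, TGACGTG, was found in Hspa5 alone of the 30 (3.33%), beside 2.01% of all promoters. The C/EBP-ATF element core, TGATGNAA, to which Atf4 and its partners bind, was found in Herpud1, Atf3, Trib3, Chac1 and Asns (16.7%), beside 3.97% of all promoters. None of these matches overlapped another, 16 of the 30 promoters held at least 1 of them (53.3%, beside 6.06% of all promoters), and a match is a stretch of letters and not a measured binding site. The genes were named for their part in this pathway, so these shares are no result about the diets.

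The sites below are shown because they occur in genes whose levels are compared later. Each is written 5′ to 3′ in the direction of the element, with the fixed bases in capitals. Positions count from the RefSeq start site, bases upstream being negative. The sites of Hspa5, Asns and Atf3 lie inside the annotated genes, which begin upstream of the RefSeq start site.
Hspa5 (chr2:34772025-34772043, bases -65 to -47): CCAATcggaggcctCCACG
Calr (chr8:84847075-84847093, bases -162 to -144): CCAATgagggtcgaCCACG
Ero1lb (chr13:12565682-12565700, bases -201 to -183): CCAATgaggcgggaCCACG
Syvn1 (chr19:6046532-6046550, bases -44 to -26): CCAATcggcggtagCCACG
Herpud1 (chr8:94386377-94386387, bases -52 to -42): ATTGGgCCACG
Atf3 (chr1:191183436-191183443, bases -110 to -103): TGATGcAA
Asns (chr6:7693225-7693232, bases -23 to -16): TGATGaAA
Chac1 (chr2:119351049-119351056, bases -193 to -186): TGATGcAA

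Upstream stretches without any annotated exon base are printed, on the strand of the gene, for Ero1lb and Atf3, because both rose on HFD and each holds 1 element of a different kind. Capitals mark the element, which in both genes lies on the opposite strand. The RefSeq start site of Atf3 lies inside the annotated gene, which has a longer transcript that begins upstream, so the Atf3 stretch is intronic for that transcript.
Ero1lb (chr13:12565633-12565873, plus strand): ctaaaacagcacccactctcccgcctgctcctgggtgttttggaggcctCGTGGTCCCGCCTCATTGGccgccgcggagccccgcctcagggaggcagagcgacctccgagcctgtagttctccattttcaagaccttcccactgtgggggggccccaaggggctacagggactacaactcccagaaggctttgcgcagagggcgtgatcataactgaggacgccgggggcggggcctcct
Atf3 (chr1:191183341-191183583, minus strand): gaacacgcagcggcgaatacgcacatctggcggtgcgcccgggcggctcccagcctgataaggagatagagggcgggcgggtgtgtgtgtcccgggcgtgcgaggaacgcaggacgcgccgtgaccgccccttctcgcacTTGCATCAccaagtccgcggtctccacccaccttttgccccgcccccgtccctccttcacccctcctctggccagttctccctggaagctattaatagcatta

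Of the 34 genes, 5 were higher and 2 were lower in HFD-fed than in ND-fed mice. Atf3, Sdf2l1, Ero1lb, Sel1l and Edem1 rose, and Asns and Xbp1 fell, in edgeR's quasi-likelihood test with Benjamini-Hochberg adjusted p under 0.05 over the 15751 genes tested. All 34 genes passed the filter on low counts and were tested. Over all genes tested, 15.9% were called, 9.85% as higher and 6.04% as lower, so 5 and 2 of 34 are close to those shares. The directions were less evenly divided: 30 of the 34 log2 fold changes were positive and their median was 0.48, whereas 7962 of the 15751 genes tested were positive with a median of 0.01. In 20 of the 34 genes all 3 HFD libraries lay above all 3 ND libraries, beside 21.7% of the genes tested, and in 3 genes (Derl1, Xbp1 and Asns) all HFD libraries lay below, beside 19.1%.

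The number called depended on the test and on single libraries. DESeq2 called 12 of the 34 higher, adding Hspa5, Hsp90b1, Hyou1, Calr, Pdia3, Atf6 and Ddit3 to the 5, and 3 lower, adding Derl1, and it called 25.1% of the whole table. Without HFD2, edgeR called 17 higher and 3 lower (24.2% of the table), whereas without ND1, ND2, ND3 or HFD1 it called 1 higher, Atf3, in each case (2.93% to 6.24% of the table). Without HFD3 it called 4 higher, and the median log2 fold change of the 34 genes was 0.27.

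**Figure D1:**
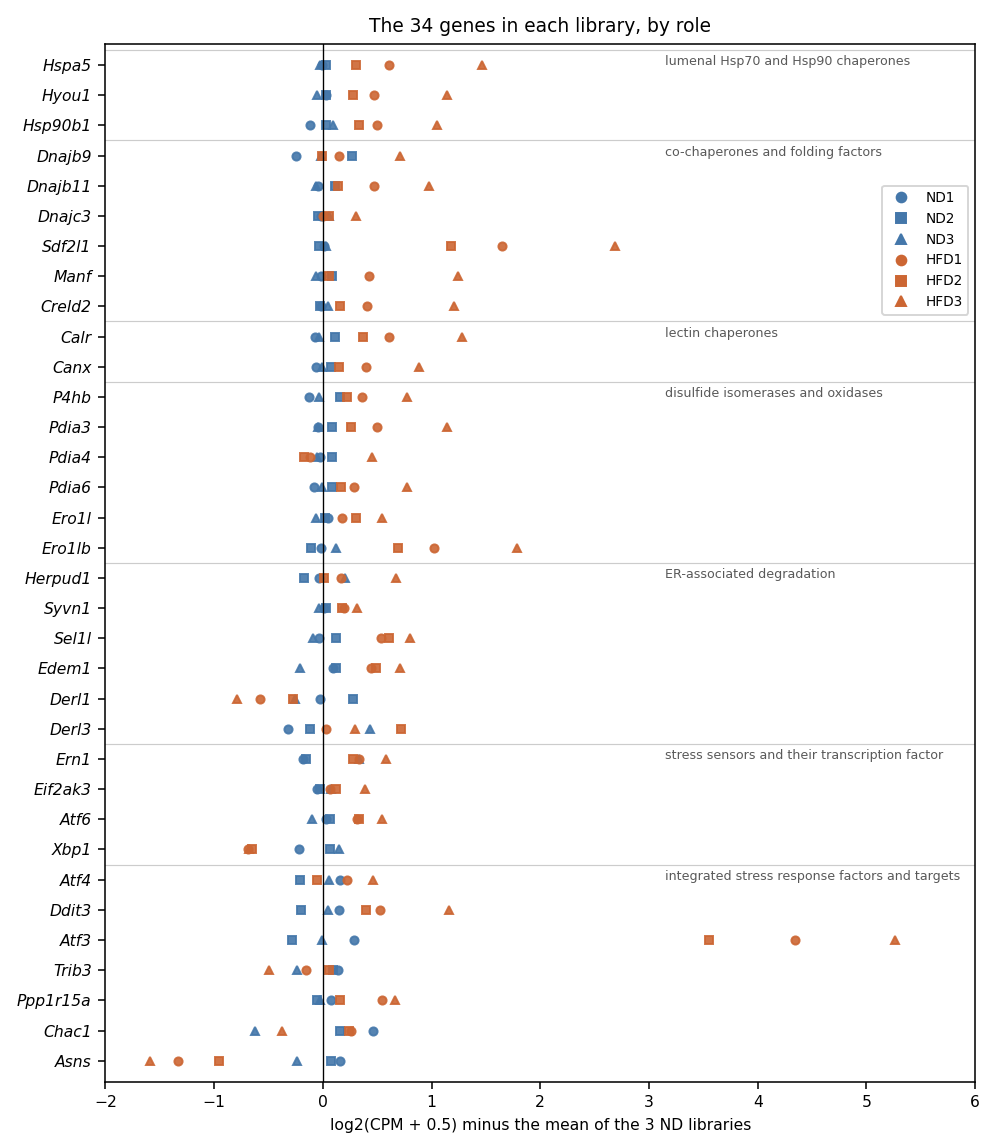
Level of each of the 34 genes in each library, as log2(CPM + 0.5) minus the mean of the 3 ND libraries (horizontal axis), with genes grouped by role (vertical axis). HFD3 (orange triangle) is the rightmost HFD library for 28 of the 34 genes, while Xbp1, Asns and Derl1 lie to the left of the ND libraries on HFD.

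The 3 most general lumenal chaperones were each higher in every HFD library than in any ND library, without passing the adjusted threshold. Hspa5 (BiP, the Hsp70 of the ER, chr2:34771970-34777547 on the plus strand) stood at 417, 428 and 410.4 CPM (read counts scaled to a common library size with edgeR's normalization factors) in ND1, ND2 and ND3 and at 639, 516 and 1158 CPM in HFD1, HFD2 and HFD3. The ND libraries were nearly equal, and HFD3 stood far above the other HFD libraries. Its log2 fold change was 0.88 ± 0.30 (SE, n = 3 per group, edgeR adjusted p = 0.0886). Hyou1, the large Hsp110-type chaperone that acts with Hspa5, had a log2 fold change of 0.68 (edgeR adjusted p = 0.0785), and Hsp90b1 (GRP94, the Hsp90 of the ER) one of 0.66 (edgeR adjusted p = 0.0731). Exons of Hsp90b1 overlap those of 3 other annotated genes, by up to 415 bases, and whether counting used the strand is not given in the sources used here.

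Among the 6 co-chaperones and folding factors, Sdf2l1 rose and the other 5 did not pass the threshold. Sdf2l1 (chr16:17130138-17132383, minus strand), a partner of the ER Hsp40 proteins, was at 14.9, 14.4 and 15.1 CPM in ND1 to ND3 and at 47.4, 34.1 and 98.1 CPM in HFD1 to HFD3. The groups did not overlap, and every HFD library was more than double any ND library. The difference was 4.04-fold, a log2 fold change of 2.01 ± 0.37 (SE, n = 3 per group, edgeR adjusted p = 0.0163). It lost the threshold when ND1, ND2, ND3 or HFD1 was left out, with edgeR adjusted p from 0.0526 to 0.0711, and kept it without HFD2 (0.00296) or HFD3 (0.00239, log2 fold change 1.44). The Hsp40 co-chaperone Dnajb11, the ER-resident and secreted factor Manf and the disulfide-acting Creld2 had log2 fold changes of 0.57, 0.67 and 0.67 with adjusted p from 0.108 to 0.149. Dnajb9, an Hsp40 that represses Ern1, was at 0.31, and Dnajc3 (p58IPK), at 0.13, was among the genes that moved least.

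The lectin chaperones Calr and Canx, which hold newly made glycoproteins, showed the same arrangement of libraries as Hspa5. Calr was at 356, 406 and 365 CPM in ND1 to ND3 and at 571, 484 and 911 CPM in HFD1 to HFD3, with no overlap between the diets and HFD3 again highest. Its log2 fold change was 0.80 ± 0.25 (SE, n = 3 per group, edgeR adjusted p = 0.0699). A processed pseudogene of Calr is annotated, so some of its reads may be shared with that copy. Canx had a log2 fold change of 0.51 (edgeR adjusted p = 0.127).

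One of the 6 disulfide isomerases and oxidases rose, and that was the less abundant of the pair of ER oxidases. Ero1lb (ERO1 beta, chr13:12565874-12611396, plus strand), which reoxidizes the isomerases, was at 13.4, 12.5 and 14.8 CPM in ND1 to ND3 and at 28.1, 22.2 and 48.0 CPM in HFD1 to HFD3. The lowest HFD library was above the highest ND library. Its 2.41-fold difference was a log2 fold change of 1.27 ± 0.28 (SE, n = 3 per group, edgeR adjusted p = 0.0268), and the call was lost when ND1, ND2, ND3 or HFD1 was left out (0.0705 to 0.0961). The paralog Ero1l (ERO1 alpha) differed less, with a log2 fold change of 0.35 (edgeR adjusted p = 0.105). The isomerases Pdia3, P4hb and Pdia6 had values of 0.68, 0.47 and 0.43, each with all HFD libraries above all ND libraries and adjusted p from 0.094 to 0.15. Pdia4 stood at 0.08 (edgeR adjusted p = 0.794), and its sign turned when HFD3 was left out (-0.16).

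**Figure D2:**
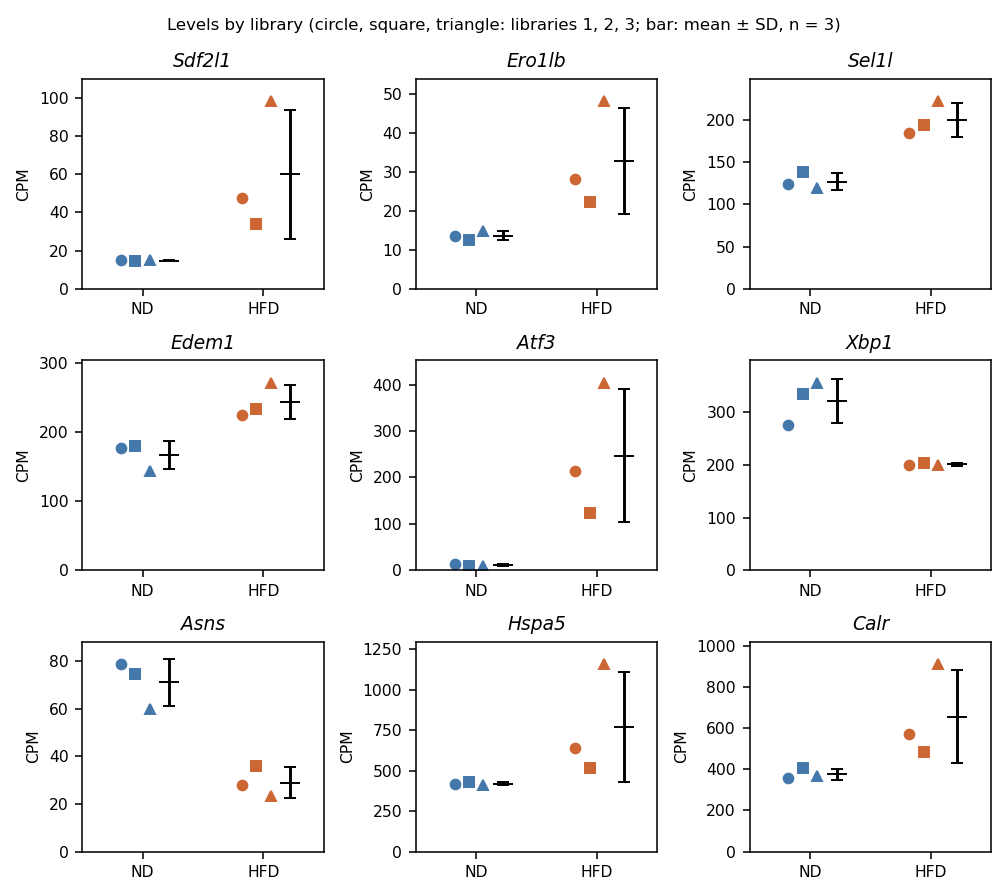
CPM in each library (vertical axis, from 0) for the 7 genes that passed the threshold and for Hspa5 and Calr, by diet; symbols are libraries and bars are the mean ± SD of 3 libraries. In Sdf2l1, Ero1lb, Atf3, Hspa5 and Calr the HFD libraries are spread more widely than the ND libraries, with HFD3 highest, whereas the HFD libraries of Xbp1 lie close together at 199 to 204 CPM.

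ER-associated degradation had 2 genes that rose among its 6, both acting in the recognition and export of misfolded glycoproteins. Sel1l (chr12:91806043-91849157, minus strand), the adaptor of the Hrd1 ubiquitin ligase, was at 124, 138 and 119 CPM in ND1 to ND3 and at 184, 194 and 222 CPM in HFD1 to HFD3. Its HFD libraries were closer together than those of the chaperones. The log2 fold change was 0.66 ± 0.13 (SE, n = 3 per group, edgeR adjusted p = 0.0204), lost without ND1, ND2, ND3 or HFD1 (0.0588 to 0.0957). Edem1 (chr6:108828641-108859356, plus strand), which trims mannose from misfolded glycoproteins, was at 177, 180.2 and 143 CPM on ND and at 225, 233 and 271 CPM on HFD. At a log2 fold change of 0.54 ± 0.15 (SE, n = 3 per group) it passed only narrowly (edgeR adjusted p = 0.0499), and it passed in 1 of the 6 fits that left out a library, the fit without HFD2, with adjusted p between 0.0962 and 0.153 in the rest.

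The other degradation genes did not pass. Syvn1, the Hrd1 ligase that Sel1l binds, was at a log2 fold change of 0.23, and Herpud1, a membrane protein of the same complex, at 0.31. Derl1, a channel-forming Derlin, was at 316, 389 and 269 CPM on ND and at 215, 265 and 186 CPM on HFD. It was one of the few members with every HFD library below every ND library (log2 fold change -0.55 ± 0.20, SE, edgeR adjusted p = 0.102). Derl3, a Derlin of secretory cells, was between 0.54 and 1.63 CPM in every library, so a difference in it was not detectable at this depth.

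Of the 3 sensors, none passed the threshold in edgeR (1, Atf6, at an unadjusted p under 0.05, which DESeq2 called), and the transcription factor downstream of Ern1 was lower on HFD. Atf6 came nearest, with 69.4, 71.4 and 63.3 CPM in ND1 to ND3 and 84.9, 85.6 and 99.4 CPM in HFD1 to HFD3. That is a log2 fold change of 0.40 ± 0.12 (SE, n = 3 per group, edgeR adjusted p = 0.0554), with no overlap between diets. Ern1 was at 23.5, 24.1 and 34 CPM on ND and at 33.8, 32.7 and 40.4 CPM on HFD, and these groups overlapped (log2 fold change 0.39, edgeR adjusted p = 0.169). Eif2ak3 was at 28.1, 28.7 and 30.8 CPM on ND and at 30.5, 31.8 and 38.3 CPM on HFD (log2 fold change 0.20, edgeR adjusted p = 0.309). Its exons share 485 bases with an unnamed annotated gene, Gm43292.

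Xbp1 (chr11:5520659-5525893, plus strand) was at 275, 335 and 356 CPM in ND1 to ND3 and at 199, 204 and 200.1 CPM in HFD1 to HFD3. All HFD libraries were below all ND libraries and almost equal to each other. It fell by 0.68 ± 0.15 on the log2 scale (SE, n = 3 per group, edgeR adjusted p = 0.0243), with adjusted p from 0.0567 to 0.0991 without ND1, ND2, ND3 or HFD1. Gene-level counts do not separate spliced from unspliced Xbp1 mRNA, so the activity of Ern1 on Xbp1 was not measured here.

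The genes of the integrated stress response moved in different directions. Atf3 (chr1:191170296-191218039, minus strand), a transcription factor induced by many stresses and known as an early response gene, showed the highest fold change of the 34, at the 99.5th percentile of all genes tested. It was at 12.4, 8.18 and 10 CPM in ND1 to ND3 and at 214, 123 and 404 CPM in HFD1 to HFD3. The lowest HFD library was several times the highest ND library. The 24.2-fold difference corresponded to a log2 fold change of 4.60 ± 0.47 (SE, n = 3 per group, edgeR adjusted p = 0.00489) and passed in all 6 fits that left out a library.

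Asns (chr6:7675169-7693254, minus strand), which makes asparagine and is a classical Atf4 target, went the opposite way. It was at 78.8, 74.5 and 60 CPM in ND1 to ND3 and at 27.8, 36.1 and 23.2 CPM in HFD1 to HFD3, and the groups did not overlap. It fell by 1.29 ± 0.19 on the log2 scale (SE, n = 3 per group, edgeR adjusted p = 0.00958) and passed in 5 of the 6 fits that left out a library, the exception being the fit without HFD1 (0.0526).

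Atf4 itself was at 175, 136 and 163 CPM on ND and at 183, 151 and 217 CPM on HFD, with overlapping groups (log2 fold change 0.22, edgeR adjusted p = 0.414). Ddit3 (CHOP), a transcription factor linked to cell death under ER stress, was at 23.5, 18.3 and 21.9 CPM on ND and at 30.6, 27.9 and 47.7 CPM on HFD. These groups did not overlap (log2 fold change 0.74 ± 0.22, SE, edgeR adjusted p = 0.0648), and Ddit3 shares up to 105 exon bases with its second record and with Mars and Gm4189. Ppp1r15a (GADD34), the phosphatase subunit that reverses eIF2 phosphorylation, was at a log2 fold change of 0.48 (edgeR adjusted p = 0.0852). Trib3, an Atf4 target that inhibits Akt, was at -0.20 (edgeR adjusted p = 0.542) and Chac1, an Atf4 target that degrades glutathione, at 0.00 (edgeR adjusted p = 0.994), both with overlapping groups. Of the 5 genes with a C/EBP-ATF core in the promoter, Atf3 rose, Asns fell, and Herpud1, Trib3 and Chac1 did not pass. The 10 genes with an ER stress response element all had positive log2 fold changes, from 0.13 (Dnajc3) to 1.27 (Ero1lb). Only Ero1lb of them passed the threshold, and 30 of all 34 genes were positive. Sdf2l1, Sel1l and Edem1, which also rose, held none of the elements in the promoter. A link between the elements and the differences was not tested.

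Per length of transcript, the order of the genes on ND ran from P4hb (142 ± 15.0 FPKM, SD, n = 3), Calr (132 ± 9.98 FPKM), Pdia3 (105 ± 6.13 FPKM), Xbp1 (100.5 ± 12.7 FPKM) and Hspa5 (100.4 ± 2.90 FPKM) down to Derl3 (0.421 ± 0.185 FPKM). FPKM are the authors' values, scaled to gene length and library size. P4hb and Calr did not differ beyond their spread, nor did Pdia3, Xbp1 and Hspa5. On HFD Calr (228 ± 78.3 FPKM), P4hb (194 ± 39.1 FPKM), Hspa5 (183 ± 80.5 FPKM) and Pdia3 (167 ± 55.1 FPKM) overlapped one another, and Xbp1 was at 62.2 ± 1.01 FPKM. Atf3, at 4.80 ± 1.01 FPKM on ND, was at 99.9, 57.3 and 188 FPKM in HFD1 to HFD3. Its HFD mean of 115 ± 66.5 FPKM was below the means of Calr, P4hb, Hspa5 and Pdia3, with overlapping spread.

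The HFD libraries were unequal in these genes. The median of the 34 genes against the ND mean was 0.35 in HFD1, 0.20 in HFD2 and 0.71 in HFD3 on the log2 scale, while the same median over all genes tested was between 0.01 and 0.02. HFD3 was the highest HFD library for 28 of the 34 genes and HFD2 the lowest for 22. The order HFD2, HFD1, HFD3 from low to high held for 22 genes (64.7%), beside 32.3% of all genes tested. The median coefficient of variation of the 34 genes was 7.33% among ND libraries and 25.0% among HFD libraries, beside 12.8% and 18.1% for all genes tested. For Hspa5 it was 2.12% on ND and 44.2% on HFD, while Xbp1 went the other way, with 13.1% on ND and 1.53% on HFD.

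Markers of other cell types moved in the same libraries. The summed level of the 34 genes was 4148, 4518 and 4209.7 CPM in ND1 to ND3 and 5431, 4867 and 7839 CPM in HFD1 to HFD3. The 12 macrophage markers summed to 1841, 1729 and 1752 CPM on ND and to 5403, 4201 and 9559 CPM on HFD. Of the 12, 8 rose, and both sums followed the order HFD2, HFD1, HFD3. The sum of 8 progenitor and fibroblast markers also did so on HFD (4235, 3447 and 6628 CPM, beside 4835 to 5573 CPM on ND). Lyz2 was the most abundant of the 12 macrophage markers, at 870.1 to 943 CPM on ND and 2021 to 4846 CPM on HFD. Cd14 and Mrc1 did not pass, nor did Mertk and Cd163, whose log2 fold changes were -0.02 and -0.05. The defining macrophage marker Adgre1 was at 41.8 to 48.6 CPM on ND and at 211 to 506 CPM on HFD. The 12 adipocyte markers summed to 33235 to 44319 CPM on ND and to 21387 to 38903 CPM on HFD, with HFD3 lowest. All 12 log2 fold changes were negative, with a median of -0.58. In edgeR 2 fell, Slc2a4 and Acvr1c, and DESeq2 called 5 lower. Fabp4 (10768 to 13765 CPM on ND, 6991 to 14385 CPM on HFD) was the most abundant of the 12. Lpl (9729 to 12885 CPM on ND, 7882 to 9400.4 CPM on HFD) came next. Adipoq, the defining adipocyte marker, was at 2814 to 3806 CPM on ND and at 1032 to 3833 CPM on HFD. The part of these shifts in cell makeup in the differences above was not tested, and in whole tissue fewer cells of a type and less RNA per cell cannot be told apart.

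Plasma cells, which carry much ER, were also followed. The 10 plasma cell markers summed to 365 to 592 CPM on ND and 765 to 807 CPM on HFD, and Ighm, at 261 to 435 CPM on ND and 433 to 616 CPM on HFD, made up most of the sum. Of them Sdc1 alone passed the threshold (log2 fold change 2.15), at 108, 65.8 and 206 CPM in HFD1 to HFD3, which is the order HFD2, HFD1, HFD3 that the sum did not show, while Mzb1 and Tnfrsf17 stayed below 4 CPM in all libraries. ND3 stood apart in epithelial markers, with a sum of 273 CPM beside 22.1 to 32.1 CPM in the other 5 libraries and Epcam at 37.5 CPM beside 0.219 CPM or less. The 34 genes had a median of -0.03 in ND3 against the ND mean, and without ND3 Atf3 was the gene called higher and Asns the gene called lower. The 8 progenitor and fibroblast markers and 6 endothelial markers had no gene past the threshold in edgeR. There were 0 and 1 at unadjusted p under 0.05 in edgeR, and 0 and 1 called by DESeq2. The endothelial sum was 625 CPM in HFD3 beside 1125 to 1379 CPM elsewhere.

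**Figure D3:**
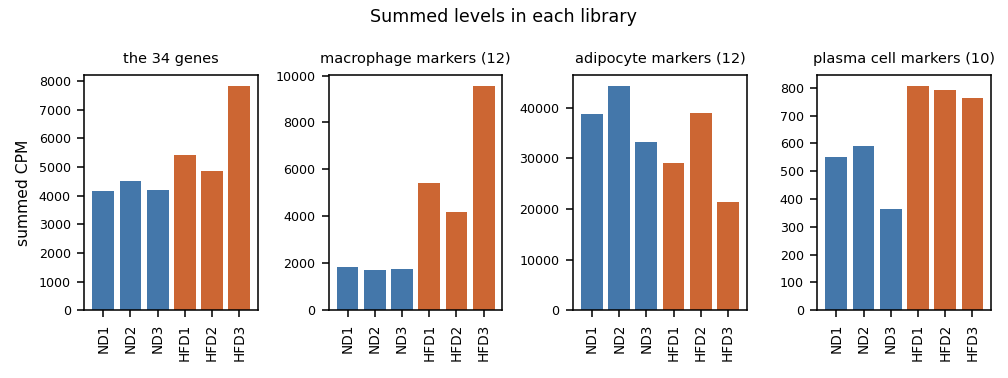
Summed CPM in each library (vertical axes, from 0) of the 34 genes and of the macrophage, adipocyte and plasma cell markers. The sums of the 34 genes and of the macrophage markers are highest in HFD3 (7839 and 9559 CPM), where the adipocyte sum is lowest (21387 CPM).

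Around the 34 genes, 10 further lists of the same pathways held 13 called genes among 150 tested (8.67%, beside 15.9% of all genes tested), 8 of them higher and 5 lower. Of the 19 genes of the translocon and signal peptidase, Sec11c, a catalytic subunit of signal peptidase, rose (28.2, 33.3 and 37.1 CPM on ND, 64.7, 51.5 and 118 CPM on HFD, log2 fold change 1.25, edgeR adjusted p = 0.0353), and the list's median was 0.13. None of the 11 oligosaccharyltransferase subunits, which attach N-glycans, passed in edgeR (2 at unadjusted p under 0.05, 1 called by DESeq2), although 10 of 11 were positive with a median of 0.36. Of 12 tested genes for glycan trimming, the glucosidase Mogs (0.54, edgeR adjusted p = 0.0438) and the mannosidase-like Edem2 (0.56, edgeR adjusted p = 0.0451) rose, and the median was 0.23. Among 12 other disulfide isomerases tested, Pdia5 rose (0.81, edgeR adjusted p = 0.0275) and the median was 0.17. The 21 other degradation genes had no call in edgeR or DESeq2 (3 at unadjusted p under 0.05 in edgeR) and a median of 0.08.

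The remaining regulators and targets included genes that rose and genes that fell. Of 15 other sensors and regulators tested, the ER membrane protein Wfs1 rose (18.9, 19.3 and 17.7 CPM on ND, 102, 70.8 and 236 CPM on HFD, log2 fold change 2.87, edgeR adjusted p = 0.0102), with the library order seen for the chaperones, and the ER-anchored transcription factor Creb3 rose by 0.41 on the log2 scale (edgeR adjusted p = 0.0323), while the list had a median of 0.16. The 10 eIF2 kinases, phosphatase and exchange factor genes had no call in edgeR (2 at unadjusted p under 0.05, 1 called by DESeq2) and a median of -0.08. Among 13 Atf4 partners and stress effectors 1 rose and 3 fell, 8 were positive, and the median was 0.36. The stress cytokine Gdf15 rose (0.324, 1.51 and 1.70 CPM on ND, 15.1, 5.48 and 41.8 CPM on HFD, log2 fold change 4.13, edgeR adjusted p = 0.023), and of those that fell the cell death gene Bbc3 was at -0.98 (edgeR adjusted p = 0.00991) and Nupr1, a stress-induced chromatin protein, at -0.55 (edgeR adjusted p = 0.0303).

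Amino acid genes, many of them Atf4 targets like Asns, gave 1 rise and 2 falls among 17 tested. Slc3a2, the heavy chain of several amino acid transporters, rose (0.63, edgeR adjusted p = 0.0263), while Cth, which makes cysteine, fell (-1.13, edgeR adjusted p = 0.0294) and Psph, the last enzyme of serine synthesis, fell (-0.94, edgeR adjusted p = 0.0369). Exons of Psph overlap those of Cct6a by 452 bases. Of the 17 genes, 11 had positive log2 fold changes, and the median was 0.32. The summed level of the list went the other way, at 2703 to 3165 CPM on ND and 1473 to 2196 CPM on HFD. Its most abundant gene, Slc1a5, was at 1811 to 2072 CPM on ND and 696 to 1244 CPM on HFD (log2 fold change -0.91, edgeR adjusted p = 0.0512). The 20 cytosolic aminoacyl-tRNA synthetases, only some of them known as Atf4 targets, had no call in edgeR or DESeq2 (5 at unadjusted p under 0.05 in edgeR), with 17 of 20 positive and a median of 0.17. Of the 27 genes called in these 10 lists and in 3 lists of other stress genes, 2 to 7 were still called when ND1, ND2, ND3 or HFD1 was left out, 26 without HFD2 and 20 without HFD3, and all 27 kept their sign.

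**Figure D4:**
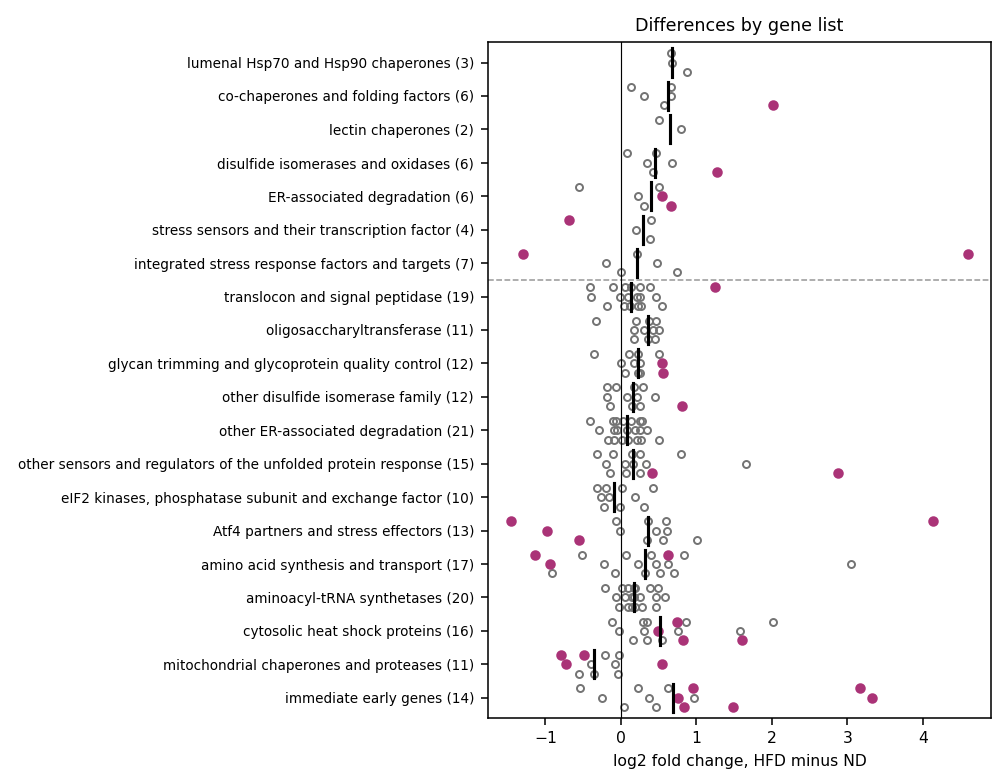
Log2 fold change, HFD minus ND (horizontal axis), of every tested gene in the 7 roles of the 34 genes (above the dashed line) and in 13 other lists (below), with the number tested in brackets. Filled points passed adjusted p under 0.05 in edgeR, open points did not, and black bars are list medians, which lie between 0.22 and 0.68 in the 7 roles.

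**Figure D5:**
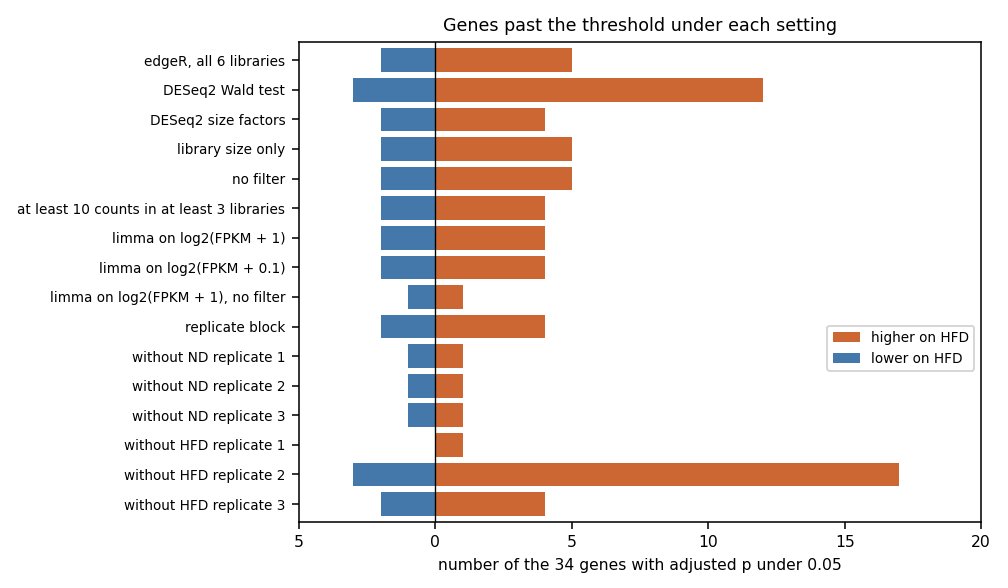
Number of the 34 genes with adjusted p under 0.05 (horizontal axis; lower on HFD to the left, higher to the right) under edgeR with all 6 libraries and under each of 15 other settings (vertical axis). The number higher is 5 in the first row, 12 with DESeq2, 17 without HFD replicate 2 and 1 without any of ND replicates 1 to 3 or HFD replicate 1.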

How the data were processed

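Per the study's methods, paired-end reads were mapped to GRCm38 (mm10) with TopHat and Cufflinks and tested with DESeq2 1.20.0. The submitters' processing notes also name DESeq2 1.20.0, and besides it CASAVA 1.8, fastp, HISAT2 2.0.5, featureCounts 1.5.0-p3 and a human build, although the identifiers are mouse. How multi-mapped reads and strand were handled is not given in the sources used here. The authors deposited raw counts per gene and FPKM per gene for 6 libraries. Counts (16996896 to 18859320 per library, 3 counts being 0.150 to 0.181 CPM) were tested with edgeR 4.0.16 in R 4.3.3 (TMM, filterByExpr, robust quasi-likelihood test, diet as the only term), with Benjamini-Hochberg adjustment over 15751 genes, after tests on simulated data. Alternatives were DESeq2 1.42.0, other scalings and filters, limma 3.58.1 on log2(FPKM + 1) or log2(FPKM + 0.1), a replicate block, and leaving out each library.

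The 34 genes and all lists were chosen with earlier results of these data known. Values in every library were given for genes past the threshold and for sensors and transcription factors, and for some further genes chosen after their values were seen (Hspa5, Calr and Derl1). From each other list up to 2 genes per direction with the smallest adjusted p were named, and Sdc1, other markers and Slc1a5 were chosen later. The labels do not say that libraries came from separate mice, so p-values measure only the spread between these libraries.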

Additional observations from a re-analysis of the deposited data

How the results depend on the processing

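The count of the 34 genes higher on HFD (5) moved to 12 with DESeq2 and to 1 with limma on log2(FPKM + 1) without a filter, where the count lower was also 1 (2 in edgeR). Leaving out 1 library gave 1 to 17 higher, 0 to 3 lower and a median log2 fold change of 0.27 to 0.57 (0.48 with all libraries). In the 13 other lists, the 19 genes higher became 31 with DESeq2, 3 with limma on log2(FPKM + 1) without a filter and 2 to 41 with 1 library left out, and the 8 lower became 1 with limma on log2(FPKM + 1) without a filter, 5 with limma on log2(FPKM + 0.1) and 0 to 9 with 1 library left out. For the 34 genes the other scalings and filters and the other FPKM fits gave 4 or 5 higher and 2 lower. Chac1, at 0.00, turned to -0.02 with DESeq2, to -0.02 with its size factors in edgeR and to -0.01 without a filter, and ranged from -0.30 to 0.27 with 1 library left out. Pdia4 ranged from -0.16 to 0.20. The other 32 genes kept their sign in all 15 alternatives. Edem1 lost the threshold in 12 of them, Sdf2l1, Ero1lb, Sel1l and Xbp1 in 5 each, Asns in 1 and Atf3 in none. The cause was not tested. Same-numbered ND and HFD libraries had correlations of -0.0674, -0.0387 and -0.00212 in their deviations from the group means. Differently numbered libraries had correlations of -0.0549 to 0.0951. With 3 libraries per group these values cannot show whether replicate numbers pair the libraries. With the replicate block 4 genes were higher, 2 lower, the median was 0.46, and the other lists had 16 higher and 5 lower. Derl3 was too low for a difference to be seen.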

Other observations

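Over all genes tested 9.85% were called higher and 6.04% lower. Of 16 cytosolic heat shock genes, 4 rose and none fell in edgeR (9 rose and none fell with DESeq2), and the median log2 fold change was 0.51, beside 0.48 for the 34 ER genes. Those with the smallest adjusted p were Hspb1, a small heat shock protein (70.1, 68.7 and 68.1 CPM on ND, 122, 140.2 and 104 CPM on HFD, log2 fold change 0.82, edgeR adjusted p = 0.0119), and Hsph1, a cytosolic Hsp110 (37.3, 28.5 and 54.9 CPM on ND, 107, 78.5 and 182 CPM on HFD, log2 fold change 1.6, edgeR adjusted p = 0.0269). Of 11 mitochondrial chaperones and proteases, 3 fell and 1 rose, 10 of the 11 were negative, and the median was -0.36. The protease subunit Clpp (-0.79, edgeR adjusted p = 0.0202) and the co-chaperone Dnaja3 (-0.49, edgeR adjusted p = 0.042) fell, and the protease Htra2 rose (0.55, edgeR adjusted p = 0.0263). Exons of Htra2 overlap those of Aup1 by 753 bases.

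Immediate early genes, a class that includes Atf3 by its known behavior, were followed as a list of 14 without it. Of these, 6 rose and none fell in edgeR (7 rose and none fell with DESeq2), with a median of 0.69. Fos was at 10.4, 6.90 and 6.60 CPM on ND and at 89.9, 40.7 and 109 CPM on HFD (log2 fold change 3.33, edgeR adjusted p = 0.0064), and Egr2 was at 4.48, 2.67 and 2.50 CPM on ND and at 28.6, 15.5 and 42.9 CPM on HFD (3.17, edgeR adjusted p = 0.00789). In both genes HFD2 was the lowest HFD library and HFD3 the highest. That order held for 64.7% of the ER genes and for 32.3% of all genes tested. The summed level of the 14 immediate early genes did not follow it, at 1158, 773 and 1137 CPM in HFD1, HFD2 and HFD3.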
